A study of Mus musculus with 8 samples.

Results

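Müller glia are the main supporting glia of the retina, and the genes described here are 14 genes that mark Müller glial identity and 21 genes that are switched on when retinal glia become reactive. These 35 genes were read in whole retinas of *dmbo* and WT mice. Each gene was represented by its probe set with the highest mean signal over the 8 arrays, and 34 of the 35 were measured, 14 identity genes and 20 reactive genes, among 21652 genes with a probe set of 1 symbol. Ciliary neurotrophic factor, *Cntf*, had no probe set under its symbol and is not analysed here. Only *Socs3* had more than 1 probe set, and its brighter one was used.

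The *dmbo* (dumbo) mice are homozygous for a nonsense mutation of the homeobox gene *Hmx1* and had been backcrossed with C57BL/6J mice, which also removed the *Rd1* mutation of the original stock. The WT mice were C57BL/6J. Both groups were sampled at postnatal day 15 (P15), with 4 retinas in each, each from a different animal by the study's account and each hybridised to 1 Affymetrix Mouse Gene 1.0 ST array. Values are log2 signals, and a difference of 1 is a doubling of signal. The whole retina was extracted, so a lower signal cannot tell fewer cells of a type from less RNA in each cell.

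Müller glia span the retina from its inner to its outer limit, take up glutamate and potassium, recycle retinoids for cones and carry lipids and metal-binding proteins. After injury they enter reactive gliosis. In that state they build intermediate filaments of *Gfap* and *Vim*, and cytokines of the interleukin-6 family, such as *Lif* and *Cntf*, act through the shared receptor subunit gp130 (*Il6st*) on the transcription factor STAT3. Stressed photoreceptors are known to produce *Edn2*, and *Fgf2* is a survival factor for photoreceptors. Reactive astrocytes elsewhere in the brain are known for *Lcn2*, *Serpina3n* and *Cd44*.

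The arrays were not alike in lens transcripts. The mean log2 signal of 16 lens crystallins was 11.51, 10.27, 8.48 and 12.52 in *dmbo* replicates 1 to 4, against 7.60, 7.61, 7.89 and 9.09 in WT replicates 1 to 4 (difference 2.65, two-sided exact permutation p = 0.0571, where 0.0286 is the smallest p that 4 arrays against 4 allow). The ranges of the groups overlapped, since *dmbo* replicate 3 lay below WT replicate 4, and without *dmbo* replicate 3 the difference was 3.39 (exact permutation p = 0.0286). The mean of 10 lens fibre genes that are not crystallins was 8.59, 7.92, 7.52 and 10.03 in *dmbo* retinas, against 7.57 to 7.69 in WT retinas. In *dmbo* replicates 1 and 2 both *Xist* and Y-linked transcripts were present, so whether each holds RNA of a single animal cannot be told here, and key values are also given without both. Sex transcripts were not balanced between the groups, since *dmbo* replicates 3 and 4 and WT replicate 2 had *Xist* at 12.80 to 12.87 and *Eif2s3y* at 4.90 to 4.98, whereas WT replicates 1, 3 and 4 had *Xist* at 6.44 to 6.65 and *Eif2s3y* at 10.63 to 11.07. The part of sex in the results was not tested. The *Hmx1* probe set gave 8.25 in *dmbo* and 8.25 in WT retinas, and a nonsense allele removes no transcript sequence, so it does not check the labels. Array medians lay between 8.19 and 8.28, correlations between arrays between 0.989 and 0.997, and 14 of the 34 genes had a mean signal under that of the median gene. They were *Nes* of the identity genes, and *Cebpd*, *Bcl3*, *Edn2*, *Lif*, *Ccl2*, *Osmr*, *Cd44*, *Serpina3n*, *C3*, *C4b*, *Timp1*, *A2m* and *Hmox1* of the reactive genes. *Lif* and *Timp1* were lowest, at percentiles 20.2 and 23.9 of all genes. Whether such a gene was detected was not tested.

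None of the 34 genes was called different between *dmbo* and WT retinas. A call took a limma adjusted p under 0.1 together with a difference of 1.2-fold or more, and 137 of the 21652 genes passed it (0.633%). Without 1 array the count of such genes lay between 70 and 154. Over the 34 the lowest adjusted p was 0.137 by limma. At an unadjusted p under 0.05 by limma, 10 of the 34 were higher in *dmbo* (3.76% of all genes) and 2 were lower (3.99% of all genes). The higher ones were *Cd9*, *Cp*, *Apoe*, *Clu* and *Prdx6* of the identity genes and *Cd44*, *Serpina3n*, *Lcn2*, *Gfap* and *Cebpd* of the reactive genes. The lower ones were *Rlbp1* and *Fgf2*. For 5 genes every *dmbo* value lay above every WT value (*Apoe*, *Cp*, *Cd9*, *Cd44*, *Serpina3n*; 2.59% of all genes), and for 2 every *dmbo* value lay below (*Rlbp1*, *Fgf2*; 3.24% of all genes).

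The median log2 fold change was 0.06 over the identity genes and 0.10 over the reactive genes, beside 0.0049 over all genes. With 1 array left out the identity median was lowest without WT replicate 2 (0.038), and the reactive median was 0.062 without *dmbo* replicate 4 or WT replicate 1. Of the 34 genes, 26 had a positive log2 fold change and 8 a negative one, against 11475 and 10177 of all genes. The highest of the 8 arrays was *dmbo* replicate 4 for 19 of the 34 genes, whereas this array was highest for 28.2% of all genes. In *dmbo* replicate 3, the *dmbo* array with the lowest crystallin signal, 17 of the 34 lay within the range of the 4 WT arrays, 9 above it and 8 below it, and 46.6% of all genes lay within it.

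**Figure D1:**
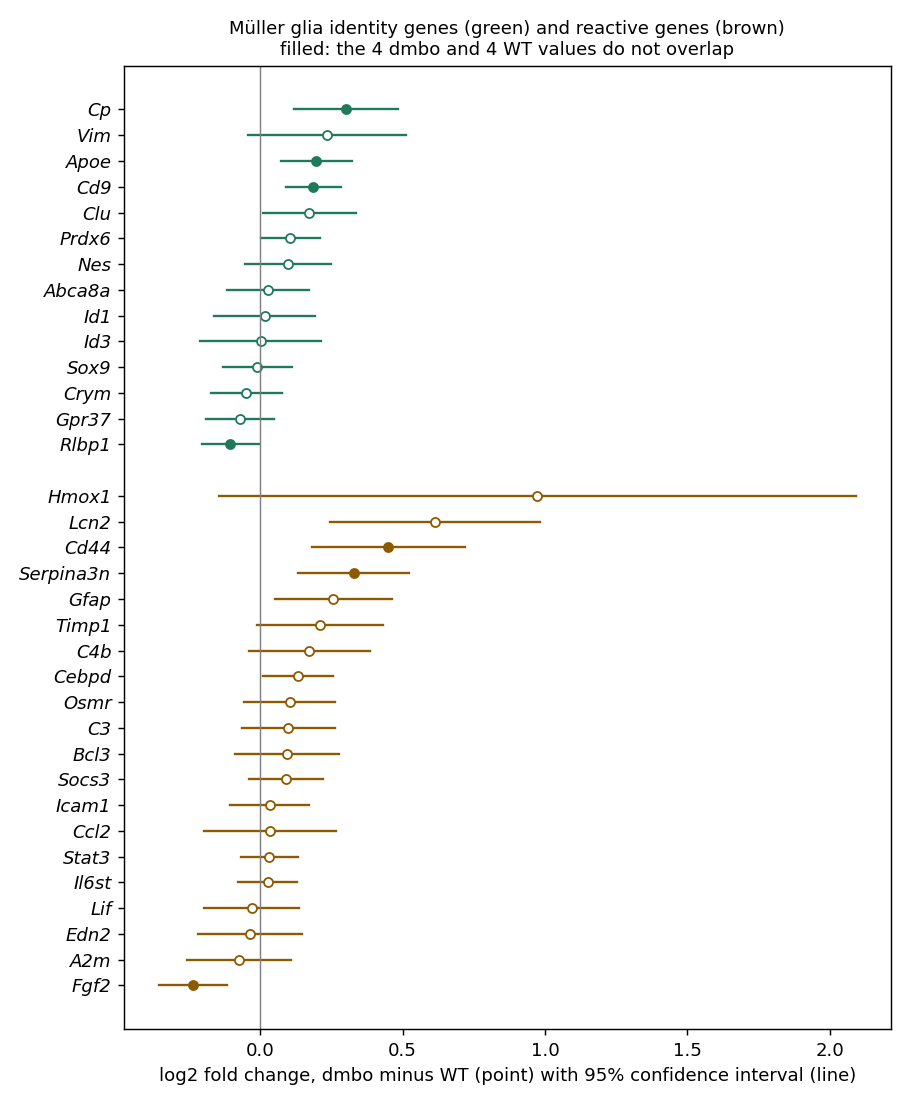
The log2 fold change of each of the 34 genes, *dmbo* minus WT, is plotted on the horizontal axis with its 95% confidence interval in limma, with the identity genes above the reactive genes. *Hmox1* had the widest interval (-0.15 to 2.09), and filled points mark the 7 genes whose *dmbo* and WT values do not overlap.

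Among the identity genes, *Rlbp1*, which encodes the retinaldehyde-binding protein CRALBP of the visual cycle, had 11.39, 11.53, 11.44 and 11.41 in *dmbo* replicates 1 to 4, against 11.53, 11.53, 11.59 and 11.54 in WT replicates 1 to 4. The groups did not overlap, but *dmbo* replicate 2 lay next to the lowest WT arrays. *Rlbp1* differed by -0.10 on the log2 scale (SE 0.04, limma adjusted p = 0.610). Its probe set lies on chromosome 7 from 86519756 to 86529671, as listed in the deposited table without a stated build.

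*Cd9*, a tetraspanin of the plasma membrane, had 9.16, 9.21, 9.19 and 9.17 in *dmbo* retinas, against 8.98, 8.93, 9.02 and 9.05 in WT retinas. All 4 *dmbo* arrays were higher and lay close together (SD 0.0219, n = 4), including *dmbo* replicate 3. *dmbo* exceeded WT by 0.19 on the log2 scale (SE 0.04, 95% CI 0.09 to 0.28, limma adjusted p = 0.144), which is under the 1.2-fold minimum. *Prdx6*, a peroxiredoxin, had 10.58, 10.59, 10.56 and 10.49 in *dmbo* retinas, against 10.36, 10.47, 10.49 and 10.47 in WT retinas. Only *dmbo* replicate 4 fell within the WT range, and the log2 fold change was 0.11 (adjusted p = 0.637 by limma).

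A further 3 identity genes encode secreted carriers. *Apoe*, the lipid carrier apolipoprotein E, had 12.02, 11.88, 11.86 and 12.08 in *dmbo* retinas, against 11.78, 11.75, 11.74 and 11.78 in WT retinas. *Cp*, the copper-binding ferroxidase ceruloplasmin, had 10.90, 10.88, 10.78 and 11.17 in *dmbo* retinas, against 10.54, 10.65, 10.72 and 10.63 in WT retinas. In both genes all *dmbo* arrays were higher, with *dmbo* replicate 4 highest and *dmbo* replicate 3 nearest to WT. *Clu*, the extracellular chaperone clusterin, had 11.51, 11.41, 11.45 and 11.74 in *dmbo* retinas, against 11.39, 11.31, 11.31 and 11.42 in WT retinas, and here *dmbo* replicate 2 fell within the WT range. The log2 fold changes were 0.20 for *Apoe* (adjusted p = 0.289), 0.30 for *Cp* (adjusted p = 0.252) and 0.17 for *Clu* (adjusted p = 0.604), all by limma, and that of *Clu* was 0.10 without *dmbo* replicate 4.

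*Vim*, which encodes the intermediate filament vimentin, had 12.38, 12.24, 12.25 and 12.85 in *dmbo* retinas, against 12.21, 12.09, 12.27 and 12.21 in WT retinas. Its difference came mainly from *dmbo* replicate 4, and *dmbo* replicates 2 and 3 lay within the WT range. For *Vim* the log2 ratio was 0.23 (SE 0.12, limma adjusted p = 0.762), and 0.094 without *dmbo* replicate 4. The filament gene *Nes* (nestin), the glial transcription factor *Sox9*, the inhibitors of helix-loop-helix factors *Id1* and *Id3*, the lipid transporter *Abca8a*, the orphan receptor *Gpr37* and the thyroid hormone-binding protein *Crym* had overlapping groups. Their log2 fold changes lay between -0.07 for *Gpr37* and 0.10 for *Nes*, with 95% confidence intervals no wider than -0.21 to 0.21, that of *Id3*.

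**Figure D2:**
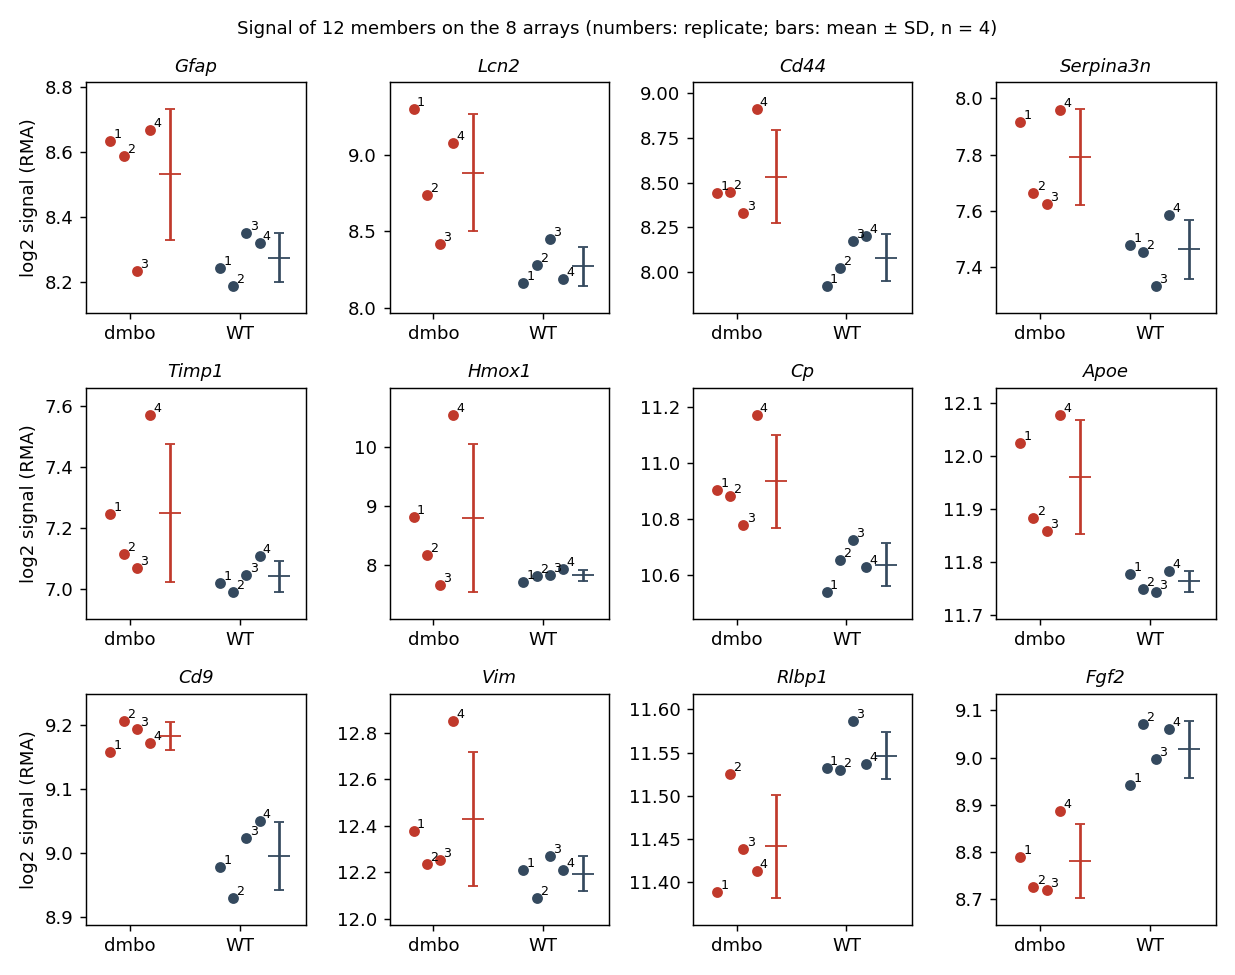
The log2 signal of 12 of the genes is plotted for the 4 *dmbo* arrays (red, left) and the 4 WT arrays (dark blue, right), numbered by replicate, with the mean ± SD of each group (n = 4). *Cd9* separates the groups with *dmbo* values of 9.16 to 9.21, whereas in *Hmox1* a single array, *dmbo* replicate 4 at 10.54, lies far above the other 7.

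The STAT3 axis was described through *Gfap*, *Stat3*, *Socs3*, *Cebpd* and *Bcl3*. STAT factors bind as dimers to inverted repeats, so the promoter windows of the genes in the RefSeq table (GRCm38.p6) were searched on both strands for the letters TTCNNNGAA, from 250 bases before the annotated start to 10 bases after it. A promoter was found for 25 of the 35 genes. The letters occurred in 3 of them, *Gfap*, *Socs3* and *Icam1*, and in 7.33% of all 32851 promoters. A match is a description of letters and not of a binding site. The 3 windows are shown 5′ to 3′ with the match in capitals, as they are the promoters of this gene group that hold it, and they lie at chr11:102897191-102897450 on the minus strand, chr11:117969357-117969616 on the minus strand and chr9:21015690-21015949 on the plus strand. The match begins at base -2 in *Gfap*, where it spans the start, at base -154 in *Socs3* and at base -42 in *Icam1*.
Gfap: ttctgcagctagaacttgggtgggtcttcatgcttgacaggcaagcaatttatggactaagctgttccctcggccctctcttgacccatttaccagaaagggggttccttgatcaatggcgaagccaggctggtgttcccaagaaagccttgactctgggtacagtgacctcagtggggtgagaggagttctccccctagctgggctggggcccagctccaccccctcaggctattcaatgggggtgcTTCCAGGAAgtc
Socs3: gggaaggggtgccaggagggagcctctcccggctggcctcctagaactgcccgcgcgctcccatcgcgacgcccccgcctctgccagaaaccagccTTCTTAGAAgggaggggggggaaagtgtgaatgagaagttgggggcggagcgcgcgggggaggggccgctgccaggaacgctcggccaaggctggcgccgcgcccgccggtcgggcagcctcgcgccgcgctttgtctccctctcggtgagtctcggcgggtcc
Icam1: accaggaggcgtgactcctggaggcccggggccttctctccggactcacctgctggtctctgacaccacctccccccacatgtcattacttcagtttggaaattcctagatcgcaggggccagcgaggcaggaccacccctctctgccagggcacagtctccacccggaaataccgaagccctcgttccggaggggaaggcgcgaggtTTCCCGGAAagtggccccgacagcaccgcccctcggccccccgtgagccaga

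*Gfap*, the classical filament marker of reactive glia, had 8.63, 8.59, 8.23 and 8.67 in *dmbo* replicates 1 to 4, against 8.24, 8.19, 8.35 and 8.32 in WT replicates 1 to 4. Of the *dmbo* arrays, 3 lay above every WT array, and *dmbo* replicate 3 lay within the WT range. *Gfap* thus averaged 0.26 higher in *dmbo* on the log2 scale (SE 0.09, 95% CI 0.05 to 0.46, limma adjusted p = 0.482). Without *dmbo* replicate 3 it was 0.36 with an adjusted p of 0.0355 by limma, and without *dmbo* replicates 1 and 2 it was 0.18. Over the alternative settings of the fit its adjusted p lay between 0.0355 and 0.9999 by limma. The *Gfap* probe set lies on chromosome 11 from 102748661 to 102758445 as listed in the deposited table.

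*Stat3* itself had 9.89, 9.85, 9.83 and 9.79 in *dmbo* retinas, against 9.74, 9.85, 9.80 and 9.84 in WT retinas. *Socs3*, the feedback inhibitor of the pathway, had 8.45, 8.47, 8.26 and 8.51 in *dmbo* retinas, against 8.30, 8.37, 8.33 and 8.33 in WT retinas. Both groups overlapped in these genes, and in *Socs3* the lowest array of all 8 was *dmbo* replicate 3. In log2 units *dmbo* minus WT was 0.03 for *Stat3* (95% CI -0.07 to 0.13, limma adjusted p = 0.975) and 0.09 for *Socs3* (-0.04 to 0.22, limma adjusted p = 0.849). *Cebpd*, a transcription factor of acute phase genes, had 7.42, 7.48, 7.38 and 7.57 in *dmbo* retinas, against 7.29, 7.26, 7.37 and 7.40 in WT retinas. Only *dmbo* replicate 3 lay within the WT range, and the log2 fold change was 0.13 (adjusted p = 0.604 by limma). *Bcl3*, a partner of NF-kB, had a log2 fold change of 0.09 with overlapping groups.

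Of the secreted ligands, *Fgf2* had the lowest p of all 34 genes. *Fgf2*, basic fibroblast growth factor, had 8.79, 8.73, 8.72 and 8.89 in *dmbo* retinas, against 8.94, 9.07, 9.00 and 9.06 in WT retinas. Every *dmbo* array was lower than every WT array. Its log2 ratio was -0.24 (SE 0.05, 95% CI -0.36 to -0.12, limma adjusted p = 0.137), and it was -0.21 without *dmbo* replicates 1 and 2. Without *dmbo* replicate 4 it was -0.27 with an adjusted p of 0.0649 by limma. The adjusted p of *Fgf2* lay between 0.0329 and 0.903 by limma over the alternative settings of the fit. The probe set lies on chromosome 3 from 37247772 to 37303719 as listed in the deposited table. The promoter of *Fgf2* (chr3:37348403-37348662 in GRCm38.p6, plus strand) is shown because it was the ligand with the clearest separation of groups. In the window searched it holds neither the STAT letters nor CAAGTG, the letters bound by HMX1, on either strand.
Fgf2: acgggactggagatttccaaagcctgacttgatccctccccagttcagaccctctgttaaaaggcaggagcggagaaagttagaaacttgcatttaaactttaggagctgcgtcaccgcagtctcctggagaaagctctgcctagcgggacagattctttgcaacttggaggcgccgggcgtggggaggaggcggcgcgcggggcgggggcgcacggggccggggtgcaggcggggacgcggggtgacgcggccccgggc

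CAAGTG occurred in the promoters of *Il6st*, *Osmr* and *Cntf*, and in 12.1% of all 32851 promoters of the same length. The AP-1 letters TGANTCA occurred in those of *Cp*, *Lif*, *Osmr* and *Cntf*, and in 7.03% of all promoters. None of the genes whose groups did not overlap held CAAGTG among the promoters found. The study's promoter model searched further past the start and required a spaced pair of these letters. The search here is thus no check of that model.

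*Edn2*, endothelin 2, had 7.48, 7.46, 7.20 and 7.54 in *dmbo* retinas, against 7.39, 7.35, 7.49 and 7.58 in WT retinas. *Lif*, leukaemia inhibitory factor, had 7.03, 6.91, 6.74 and 7.06 in *dmbo* retinas, against 6.91, 7.03, 6.88 and 7.03 in WT retinas. In both genes *dmbo* replicate 3 was the lowest of the 8 arrays, and the other arrays of the 2 groups were interleaved. Differences in log2 signal were -0.04 for *Edn2* (95% CI -0.22 to 0.15) and -0.03 for *Lif* (-0.20 to 0.14). The chemokine *Ccl2* had 0.03 (-0.20 to 0.26), also with *dmbo* replicate 3 lowest.

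Of the receptors and adhesion molecules, *Cd44*, the hyaluronan receptor, had 8.44, 8.45, 8.33 and 8.91 in *dmbo* retinas, against 7.92, 8.03, 8.18 and 8.20 in WT retinas. Every *dmbo* array was higher, with *dmbo* replicate 4 above the rest. Its difference was 0.45 on the log2 scale (SE 0.12, 95% CI 0.18 to 0.72, limma adjusted p = 0.239), and it was 0.54 without *dmbo* replicates 1 and 2. The cytokine receptor subunits *Il6st* and *Osmr* (oncostatin M receptor) had log2 fold changes of 0.03 and 0.10, and the leukocyte adhesion molecule *Icam1* had 0.03, all with overlapping groups.

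Among the acute phase and stress genes, *Lcn2*, the siderophore-binding lipocalin 2, had 9.30, 8.74, 8.42 and 9.08 in *dmbo* retinas, against 8.16, 8.28, 8.45 and 8.19 in WT retinas. *Serpina3n*, a serine protease inhibitor, had 7.92, 7.66, 7.63 and 7.96 in *dmbo* retinas, against 7.48, 7.45, 7.33 and 7.59 in WT retinas. In *Serpina3n* the groups did not overlap, and in *Lcn2* only *dmbo* replicate 3 lay within the WT range. *Lcn2* differed by 0.61 (SE 0.16, limma adjusted p = 0.243), and 0.77 without *dmbo* replicate 3 with an adjusted p of 0.0489 by limma. Its adjusted p lay between 0.0489 and 0.909 by limma over the alternative settings of the fit. *Serpina3n* differed by 0.33 (SE 0.09, limma adjusted p = 0.236), and 0.33 without *dmbo* replicates 1 and 2. The *Serpina3n* promoter (chr12:104406458-104406717 in GRCm38.p6, plus strand) is shown as that of the acute phase gene whose groups did not overlap, and it holds neither the STAT letters, CAAGTG nor TGANTCA.
Serpina3n: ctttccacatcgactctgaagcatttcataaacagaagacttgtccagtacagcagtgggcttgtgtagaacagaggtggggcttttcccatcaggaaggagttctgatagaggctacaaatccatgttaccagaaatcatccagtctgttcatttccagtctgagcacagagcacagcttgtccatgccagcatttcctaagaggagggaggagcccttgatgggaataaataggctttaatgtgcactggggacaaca

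*Timp1*, an inhibitor of matrix metalloproteinases, had 7.25, 7.12, 7.07 and 7.57 in *dmbo* retinas, against 7.02, 6.99, 7.05 and 7.11 in WT retinas. *Hmox1*, the haem-degrading enzyme haem oxygenase 1, had 8.80, 8.16, 7.66 and 10.54 in *dmbo* retinas, against 7.71, 7.80, 7.82 and 7.93 in WT retinas. In both genes *dmbo* replicate 4 was far above the other arrays, and in *Hmox1* *dmbo* replicate 3 was the lowest of all. Means differed by 0.21 for *Timp1* (SE 0.10, limma adjusted p = 0.691) and 0.97 for *Hmox1* (SE 0.50, limma adjusted p = 0.746), and without *dmbo* replicate 4 these were 0.10 and 0.39. The complement genes *C3* and *C4b* had 0.10 and 0.17, and the protease inhibitor *A2m* had -0.07, with overlapping groups.

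The relation of each gene with the crystallin mean over the 8 arrays was then measured. A gene was said to follow the crystallin mean where its Pearson r had an adjusted p under 0.1 by the exact permutation test over all 40320 pairings, adjusted over the 21652 genes, and r was still at least 0.5 with the same sign without *dmbo* replicates 1 and 4, the 2 arrays farthest from the median crystallin mean. By this rule 9 of the 34 genes followed it positively (1.52% of all genes) and 0 negatively (1.52% of all genes). They were *Apoe*, *Clu* and *Cp* of the identity genes and *Gfap*, *Cebpd*, *Cd44*, *Serpina3n*, *Timp1* and *Hmox1* of the reactive genes. At an unadjusted exact permutation p under 0.05, r was positive for 15 genes (11.5% of all genes) and negative for 1, *Rlbp1* (8.83% of all genes). With 1 array left out the counts fell for these genes and over all genes together. Of the 34, 5 passed when *dmbo* replicate 3 (2.44% of all genes) or WT replicate 4 (1.58%) was dropped, 2 when WT replicate 3 was (0.411%) and 0 when *dmbo* replicate 2 was (0.222%). Dropping any of the other 4 arrays left 0 of all 21652 genes, so those counts say nothing about the 34. The median r was 0.40 over the identity genes, 0.79 over the reactive genes and 0.14 over all genes.

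Over the 9 genes r lay between 0.868 for *Clu* and 0.954 for *Apoe*, with adjusted exact permutation p between 0.0448 and 0.0986, and without *dmbo* replicates 1 and 4 it lay between 0.528 for *Clu* and 0.930 for *Cebpd*. *dmbo* replicate 4 was the highest array in all 9. It also had the highest crystallin mean, so the rule that chose the 9 favours this and it is no further result. *Timp1* had r = 0.909 (exact permutation p = 4.96e-05, adjusted p = 0.0448) and Spearman's rho = 0.976 (exact permutation p = 0.000397, adjusted p = 0.0868), and r = 0.905 without the 2 arrays. Its order over the arrays was thus nearly that of the crystallins, WT arrays included. *Gfap* had r = 0.938 (exact permutation p = 0.00134, adjusted p = 0.0859), rho = 0.833 (exact permutation p = 0.0154, adjusted p = 0.212) and r = 0.856 without the 2 arrays. *Hmox1* had r = 0.883 (exact permutation p = 0.000694, adjusted p = 0.0751), rho = 0.857 (exact permutation p = 0.0107, adjusted p = 0.195) and r = 0.838 without the 2 arrays.

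*Serpina3n* had r = 0.945 (exact permutation p = 0.000546, adjusted p = 0.0735) and *Cd44* had r = 0.920 (exact permutation p = 0.00057, adjusted p = 0.0735), with rho = 0.881 (exact permutation p = 0.00724) and 0.952 (exact permutation p = 0.00114). *Cebpd* had r = 0.892 (exact permutation p = 0.00159, adjusted p = 0.0859) and rho = 0.952 (exact permutation p = 0.00114). Of the carriers, *Apoe* had r = 0.954 (exact permutation p = 0.00114), *Cp* 0.901 (exact permutation p = 0.00186) and *Clu* 0.868 (exact permutation p = 0.0029), with rho of 0.881 (exact permutation p = 0.00724), 0.857 (exact permutation p = 0.0107) and 0.810 (exact permutation p = 0.0218). Of the 9, only *Timp1* had an adjusted p under 0.1 for rho. Only 5 of the 9 passed the same rule with the mean of the lens fibre genes in place of the crystallins, *Apoe*, *Gfap*, *Serpina3n*, *Timp1* and *Hmox1*, where 2.71% of all genes passed in either direction, against 3.04% with the crystallins.

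The groups differ in crystallin signal, so a gene that differs between genotypes can correlate with it through genotype. With each genotype's mean taken off both measures, the r of the 9 genes lay between 0.748 for *Clu* and 0.895 for *Apoe* (8 arrays, given as a description with no test). The *dmbo* arrays weigh more in it, as their crystallin mean had an SD of 1.74 against 0.70 in WT. Within the 4 *dmbo* arrays alone r was 0.765 for *Clu* to 0.941 for *Apoe*. Within the 4 WT arrays alone it was 0.073 for *Cp* to 0.948 for *Timp1*, with 0.548 for *Gfap* and 0.553 for *Apoe*. In the r of deviations, genes outside the 9 reached as high, with 0.911 for *Edn2*, 0.886 for *Lif*, 0.883 for *C4b* and 0.754 for *Fgf2*. The rule applied to these deviations held for 12 of the 34, among them 5 of the 9 and not *Clu*, *Cp*, *Cebpd* or *Cd44*, and for 23.4% of all genes. Its permutations treat the 8 deviations as exchangeable although each genotype's mean was taken off. These counts are therefore a description only. *Fgf2* changed sign, as its r over the 8 arrays was -0.45 (exact permutation p = 0.264, rho = -0.452, exact permutation p = 0.267). *Cd9* behaved otherwise. Its r was 0.717 (exact permutation p = 0.0534, adjusted p = 0.252) and rho 0.714 (exact permutation p = 0.0576) over the 8 arrays. With each genotype's mean taken off its r was 0.0452, which joins opposite signs, -0.644 within the 4 *dmbo* arrays and 0.788 within the 4 WT arrays. *Prdx6* likewise had -0.214 with the genotype means taken off, from -0.576 within the *dmbo* arrays and 0.354 within the WT arrays.

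The relation rested on the 2 arrays with the most crystallin in several genes. *Vim* had r = 0.817 (exact permutation p = 0.00444, adjusted p = 0.112) and rho = 0.762 (exact permutation p = 0.0368), but r = 0.348 without *dmbo* replicates 1 and 4. *Bcl3* had r = 0.773 (exact permutation p = 0.0257, adjusted p = 0.195) and rho = 0.595 (exact permutation p = 0.132), but r = -0.155 without them. In *Rlbp1* r was -0.738 (exact permutation p = 0.0378, adjusted p = 0.223) and rho = -0.667 (exact permutation p = 0.0831), but r = -0.158 without them. *Lcn2* and *C4b* kept r of 0.684 and 0.548 without these arrays, and over all 8 arrays they missed the threshold with r = 0.894 (exact permutation p = 0.00538, adjusted p = 0.122; rho = 0.810, exact permutation p = 0.0218) and r = 0.892 (exact permutation p = 0.00573, adjusted p = 0.125; rho = 0.786, exact permutation p = 0.0279). *Stat3* had r = 0.309 (exact permutation p = 0.452) and rho = 0.262 (exact permutation p = 0.536).

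**Figure D3:**
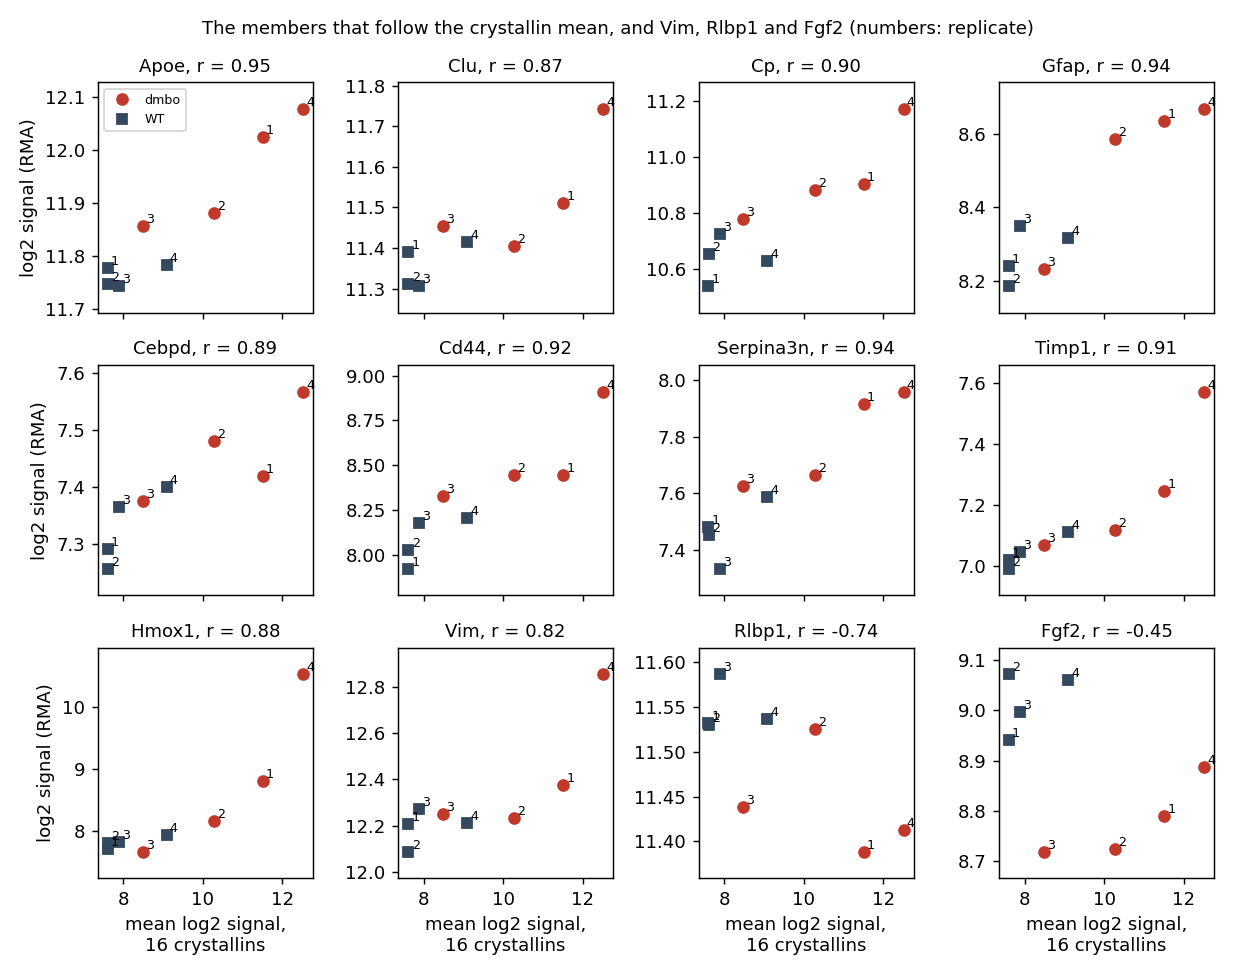
The log2 signal of the 9 genes that followed the crystallin mean and of *Vim*, *Rlbp1* and *Fgf2* (vertical axis) is plotted against the mean log2 signal of 16 crystallins (horizontal axis), with *dmbo* arrays as red circles and WT arrays as dark squares numbered by replicate. *Gfap* in *dmbo* replicate 3 (8.23) sits among the WT arrays, and *Fgf2* separates the genotypes over the 8 arrays with r = -0.45, which is 0.754 after each genotype's mean is taken off.

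**Figure D4:**
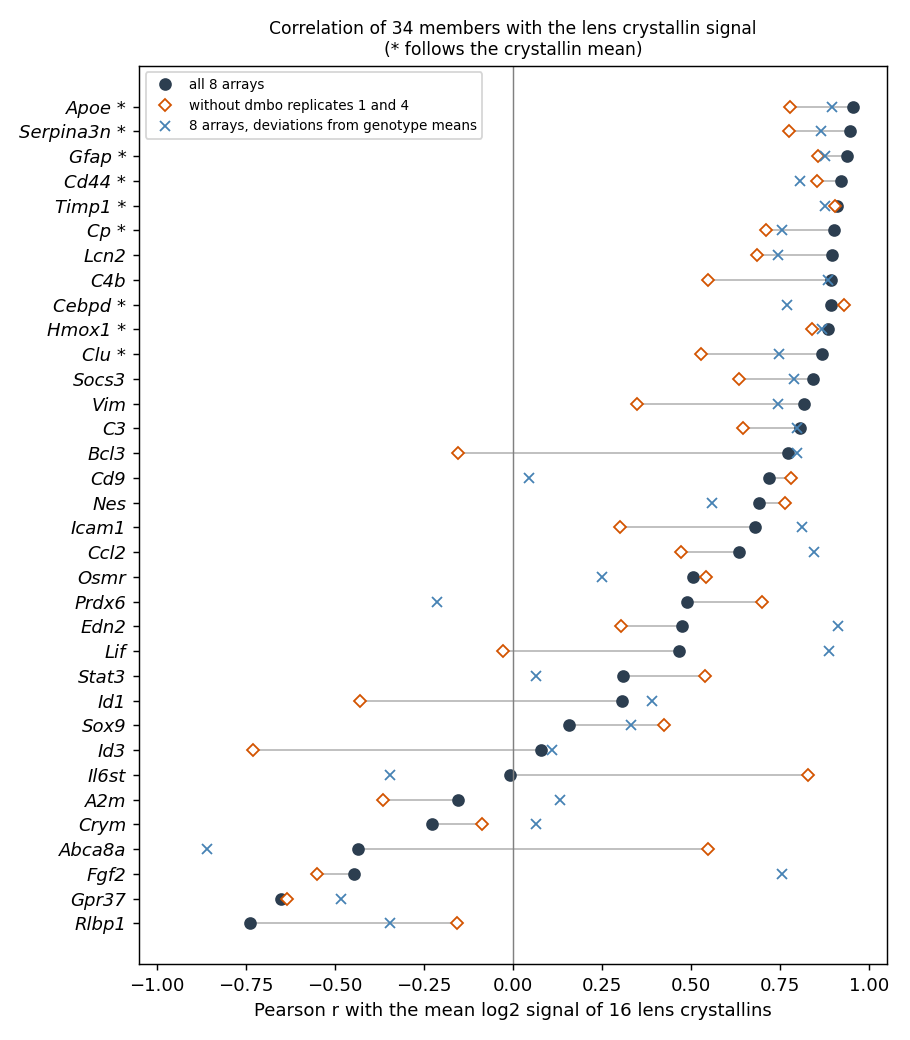
Pearson r with the crystallin mean is plotted for each of the 34 genes over all 8 arrays (filled circles), without *dmbo* replicates 1 and 4 (open diamonds) and over the 8 arrays after each genotype's mean was taken off (crosses). *Timp1* and *Gfap* stay near 0.9 in all 3, whereas *Bcl3* moves to -0.155 without the 2 arrays and *Cd9* to 0.0452 after the genotype means were taken off.

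With the crystallin mean as a covariate beside genotype in limma, the slope on crystallin was positive at an adjusted p under 0.1 for 17 of the 34 genes (18.8% of all genes) and negative for 1, *Abca8a* (8.97% of all genes). The 17 were 4 identity genes and 13 reactive genes. The steepest was *Hmox1*, with 0.58 log2 units per log2 unit of crystallin mean (adjusted p = 0.0326 by limma), followed by *Lcn2* (0.16, adjusted p = 0.0684), *Cd44* (0.12, adjusted p = 0.0506) and *Vim* (0.12, adjusted p = 0.0735), all by limma. The ligands *Ccl2* (0.11), *Edn2* (0.09) and *Lif* (0.08) were among the 17, although their 8 arrays together gave r of 0.634, 0.474 and 0.465 with exact permutation p of 0.0947, 0.237 and 0.252 and rho of 0.643, 0.524 and 0.310 with exact permutation p of 0.0962, 0.197 and 0.462.

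The genotype term of that model is the difference at equal crystallin signal. It was smaller than the plain difference in 23 of the 26 genes with a positive log2 fold change, and it was negative in 13 of those 26. Since the crystallin mean was higher in *dmbo*, a positive slope on it lowers the genotype term by construction. How often this term was smaller over all genes was not counted. *Gfap* had -0.01 (SE 0.08), *Cd44* 0.12 (0.12), *Serpina3n* 0.08 (0.08), *Lcn2* 0.19 (0.18), *Cp* 0.10 (0.09) and *Apoe* 0.06 (0.06), with adjusted p between 0.513 and 0.960 by limma. *Hmox1* had -0.57 (SE 0.40, adjusted p = 0.416 by limma). *Cd9* held at 0.18 (SE 0.06, adjusted p = 0.141 by limma), and *Abca8a* had 0.19 (0.06, adjusted p = 0.148 by limma).

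In the same model 0 of the 34 genes were called higher in *dmbo* (1.34% of all genes) and 2 were called lower (1.57% of all genes). *Fgf2* had -0.34 (SE 0.06, adjusted p = 0.0589 by limma) and *Edn2* -0.27 (SE 0.07, adjusted p = 0.0969 by limma). *Ccl2* and *Lif* had -0.26 and -0.24 with adjusted p of 0.167 and 0.121 by limma. The median over the reactive genes was -0.08, over the identity genes -0.01 and over all genes -0.03. Crystallin signal is partly confounded with genotype, since 3 of the 4 *dmbo* arrays exceeded every WT array in it, so with 8 arrays the parts of lens signal and genotype in these values cannot be told apart.

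**Figure D5:**
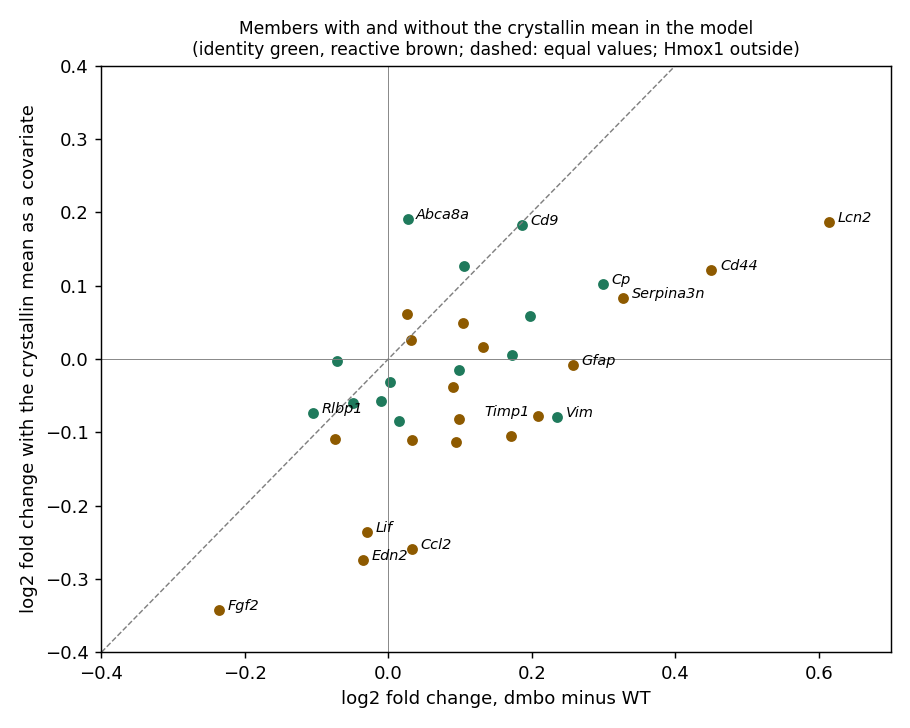
The log2 fold change of 33 of the genes with the crystallin mean as a covariate (vertical axis) is plotted against the plain log2 fold change (horizontal axis), identity genes in green and reactive genes in brown. Most points lie below the dashed line of equal values, *Fgf2* lies lowest at -0.34, and *Hmox1* (0.97 without and -0.57 with the covariate) is outside the axes.

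Other gene lists of the same biology were counted beside these genes. Of 20 further Müller glia genes, 3 were called and rose in *dmbo*, and 0 fell (0.633% of all genes were called in either direction). At an unadjusted p under 0.05 by limma 8 were higher (3.76% of all genes) and 0 lower (3.99%), and 8 lay above WT without overlap (2.59%). Those called were *Car14*, a carbonic anhydrase, by 0.33 (adjusted p = 0.0104), *Kcnj10*, the potassium channel Kir4.1, by 0.29 (adjusted p = 0.0510), and the water channel *Aqp4* by 0.30 (adjusted p = 0.0727), all by limma on the log2 scale. *Car14* had 10.59, 10.59, 10.70 and 10.61 in *dmbo* retinas, against 10.30, 10.28, 10.29 and 10.30 in WT retinas, so its *dmbo* arrays were alike whatever their crystallin signal. With each array left out in turn the adjusted p of *Car14* stayed at or under 0.0589 by limma, whereas that of *Kcnj10* was under 0.1 only without *dmbo* replicate 4 and that of *Aqp4* only without *dmbo* replicate 1, 3 or 4 (limma). Without *dmbo* replicates 1 and 2 together none of the 3 was called, with adjusted p of 0.131 for *Car14*, 0.565 for *Kcnj10* and 0.248 for *Aqp4* by limma. *Glul*, the glutamine synthetase of Müller glia, differed by 0.08 (limma adjusted p = 0.827). The mean signal of the 20 genes was 10.42 to 10.50 in *dmbo* and 10.30 to 10.35 in WT retinas. With each genotype's mean taken off, the median of their r with the crystallin mean was -0.17, against 0.80 for the reactive genes and 0.22 for all genes. Other lists also lay above all genes in this median, with 0.63 for the pan-reactive astrocyte genes, 0.61 for cornea genes, 0.51 for complement genes, 0.48 for further reactive astrocyte genes, 0.46 for pigment epithelium genes and 0.44 for microglia genes.

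No gene was called in either direction among 20 genes of the interleukin-6 family and JAK-STAT pathway (0.633% of all genes). Of them 0 had an unadjusted p under 0.05 by limma (3.76% of all genes higher and 3.99% lower). Counts of 0 in 20 genes lie near these shares. Oncostatin M (*Osm*) had the lowest p of these, with a difference of 0.11 (limma adjusted p = 0.860). Of 16 genes of FGF and endothelin signalling none was called, and 3 were higher at an unadjusted p under 0.05 by limma (3.76% of all genes). The endothelin receptor *Ednrb* had 8.45, 8.26, 8.16 and 8.34 in *dmbo* retinas, against 7.81, 7.85, 8.06 and 8.04 in WT retinas, without overlap (difference 0.36 in log2 units, SE 0.08, limma adjusted p = 0.118), and the FGF receptor *Fgfr1* had 0.20 (adjusted p = 0.576 by limma).

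None was called among 14 BMP and Id genes, 5 pan-reactive astrocyte genes, 22 further reactive astrocyte genes, 10 NF-kB genes and 13 complement genes. Over all genes 0.633% were called, so lists of this size would hold few calls at that share. At an unadjusted p under 0.05 by limma, 2 of the BMP and Id genes and 1 of the NF-kB genes, *Tnfaip3* (0.23), were higher (3.76% of all genes). At the same threshold 1 of the further astrocyte genes, *H2-D1* (-0.56), was lower (3.99% of all genes). The small heat shock protein *Hspb1* had 9.56, 8.87, 8.49 and 11.47 in *dmbo* retinas, against 8.68, 8.59, 8.78 and 9.10 in WT retinas. Like *Hmox1* it was highest in *dmbo* replicate 4 and lowest in *dmbo* replicate 3.

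Marker lists of other cell types were read beside the reactive genes, and their part in the results was not tested. The mean of 6 astrocyte genes was 9.18 to 9.30 in *dmbo* and 8.95 to 9.10 in WT retinas (exact permutation p = 0.0286), with 1 of 6 called (0.633% of all genes), *Aqp4*, which is also a Müller glia gene. At an unadjusted p under 0.05 by limma 4 of the 6 were higher (3.76% of all genes), among them *Aldh1l1* (0.24) and *Aldoc* (0.14), and 3 lay above WT without overlap (2.59%). The mean of 11 microglia genes was 7.87 to 8.02 in *dmbo* and 7.84 to 7.93 in WT retinas, with 0 of 11 called. Of these genes 3 were higher at an unadjusted p under 0.05 by limma (3.76% of all genes) and 2 without overlap (2.59%). The microglia mean moved with the crystallin mean (r = 0.883, exact permutation p = 0.00424, rho = 0.905, exact permutation p = 0.00456, a list chosen after its values were seen), with r = 0.689 without *dmbo* replicates 1 and 4. That of 10 endothelial and pericyte genes was 8.80 to 8.93 in *dmbo* and 8.89 to 9.06 in WT retinas, with 0 of 10 called. Means of the pigment epithelium list lay between 8.20 and 8.89 in *dmbo* and between 8.29 and 8.81 in WT retinas, and those of the cornea list between 7.57 and 8.14 in *dmbo* and between 7.57 and 8.82 in WT retinas. The mean of 7 blood genes was 8.77 to 9.26 in *dmbo* and 9.05 to 9.41 in WT retinas, with 0 of 7 called, but 4 of 7 were lower at an unadjusted p under 0.05 by limma (3.99% of all genes). Their median log2 fold change was -0.52, and the haemoglobin gene *Hbb-b2* differed by -0.60 (SE 0.15, limma adjusted p = 0.199). The 8 rod genes, which mark retina, had means of 12.44 to 12.56 in *dmbo* and 12.51 to 12.56 in WT retinas.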

How the data were processed

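Whole retinas of 4 *dmbo* and 4 WT mice were measured at P15. The authors extracted the array signals with Affymetrix Power Tools and normalized them by RMA, in which the background is corrected, quantiles are equalized and the probes of a probe set are summarized, and they deposited log2 signals for 28350 probe sets. Versions of these tools are not given in the sources used here. Beside the signals, the deposited table holds the authors' group means, fold changes, t statistics, p-values and adjusted p-values from limma, none of which was used, and it names no genome build. The array values of the deposited tables were identical.

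*dmbo* minus WT was estimated for every probe set by a linear model with moderated variances (limma 3.58.1, R 4.3.3), and p-values were adjusted over all probe sets by the method of Benjamini and Hochberg. Of the probe sets, 25004 carried 1 symbol, 3344 none and 2 several, and a gene was read from its brightest probe set (21652 genes). A call took an adjusted p under 0.1 together with a difference of 1.2-fold or more. Correlations with the crystallin mean were tested over all 40320 pairings. Precision is limited by the number of arrays (4 in each group), and p-values measure the spread between these arrays.

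The genes and the lists were chosen with earlier results of these data known. Values per array are given for every gene at an unadjusted p under 0.05, with groups that do not overlap or that followed the crystallin mean, and for *Gfap*, *Rlbp1*, *Vim*, *Stat3*, *Socs3*, *Edn2*, *Fgf2* and *Lif*; of the other lists, for genes with the lowest p or the highest signal. The calculations were tested on simulated data. Alternatives were other normalizations, filters, priors and weights, a replicate block, arrays left out and the crystallin mean as a covariate. Promoters were read from RefSeq (GRCm38.p6).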

Additional observations from a re-analysis of the deposited data

Results flagged for a closer look

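In 2 of the 70 groups of 4 arrays that were examined, 1 array stood far from the other 3 of its group, and chance gives about 1 such group in 20. *Rlbp1* in WT replicate 3 was 11.59, against 11.53 to 11.54 in the other WT retinas. *Gpr37* in *dmbo* replicate 1 was 10.88, against 11.05 to 11.08 in the other *dmbo* retinas.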

How the results depend on the processing

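Of the log2 fold changes of single genes under the alternatives, 605 kept their direction and their side of an adjusted p of 0.1, 43 turned sign and 21 passed an adjusted p under 0.1 by limma, 12 of them with a difference of 1.2-fold or more. Cyclic loess called 170 genes, of them 1 of the 34, *Serpina3n* (0.31, adjusted p = 0.0924 by limma), and gave *Id3* -0.0051. Centring arrays on their medians gave *Id3* -0.0079 and left 4 of the 34 genes following the crystallin mean (3.85% of all genes, against 3.04%). Array weights called 253 genes, of them 5 of the 34 (*Cp*, *Gfap*, *Cd44*, *Lcn2* and *Serpina3n*), and gave *Id1* -0.056, *Id3* -0.099 and *Edn2* 0.014. A 1.5-fold minimum left 27 genes called and an adjusted p under 0.05 left 86. With the mean of lens fibre genes 5 of the 34 followed it (2.71% of all genes), and with Spearman's rho 1 (0.457%), against 9.

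With the crystallin mean as a covariate 631 genes were called (1.34% of all genes higher and 1.57% lower), of them 2 of the 34. At an unadjusted p under 0.05 by limma there were 6 of the 34, and the share of all genes was not counted in this fit. The medians were -0.0089 for identity genes and -0.080 for reactive genes. The signs turned for *Vim* (-0.079), *Nes* (-0.015), *Id1* (-0.084), *Id3* (-0.032), *Gfap* (-0.0084), *Socs3* (-0.038), *Bcl3* (-0.11), *Ccl2* (-0.26), *Icam1* (-0.11), *C3* (-0.082), *C4b* (-0.11), *Timp1* (-0.078) and *Hmox1* (-0.57).

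Without *dmbo* replicates 1 and 2, 44 genes were called and *Sox9* had 0.026. Without *dmbo* replicates 1 and 4, *Id1* had -0.049, *Id3* -0.060, *Bcl3* -0.048, *Ccl2* -0.070, *Icam1* -0.031 and *C4b* -0.0022. With 1 array left out, 70 to 154 genes were called, 0 to 2 of the 34 among them, and 0 to 5 of the 34 followed the crystallin mean (at most 2.44% of all genes). An unadjusted p under 0.05 by limma was found for 7 to 15 of the 34, and the share of all genes was not counted in these fits. The median of the identity genes was 0.038 to 0.081 and that of the reactive genes 0.062 to 0.14, and the crystallin mean differed by 2.04 to 3.39. Leaving out 1 array also gave *Sox9* -0.044 to 0.027, *Abca8a* -0.017 to 0.083, *Ccl2* -0.044 to 0.12, *Edn2* -0.075 to 0.039, *Icam1* -0.015 to 0.063, *Id1* -0.058 to 0.073, *Id3* -0.076 to 0.054 and *Lif* -0.071 to 0.036. With 7 arrays there are fewer pairings, so small p-values of r are harder to reach. Whether this accounts for the lower counts, and the cause of the other changes, was not tested.

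With the replicate block, 113 genes were called and 1 of the 34, *Serpina3n* (0.33, adjusted p = 0.0923 by limma). Deviations of arrays with the same number correlated at -0.03, -0.02, 0.03 and 0.43 across genes. The 0.43, of the arrays numbered 4, was the highest over all pairs of a *dmbo* and a WT array, and the lowest was -0.45. Whether the numbers pair the samples cannot be told from these values. Signals under the median gene have no detection test.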
